A study of Homo sapiens with 48 samples.

Results

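ETV1, ETV4 and ETV5 are the PEA3 transcription factors, 3 genes of the 60610 listed in a count table of a kidney cell line stimulated through a growth factor receptor and a hormone receptor. They were selected by name, and with their levels in this table already known, so their own values are described here without a test. HEK293 cells, a human embryonic kidney line, carried a stably integrated angiotensin II type 1 receptor (AT1R), introduced with a puromycin resistance plasmid, and came from a single clone obtained by limiting dilution. All 8 groups shared the transgene and medium without serum, and received no stimulus (control), 1 nM angiotensin II (AII), 10 µg/L EGF or AII + EGF for 6 h or 24 h. Each group was labelled with 6 libraries. The selection left out 10 of the 48 libraries and kept 4 (control), 5 (AII), 3 (EGF) and 4 (AII + EGF) at 6 h and 6, 5, 5 and 6 at 24 h. The comparisons address how AII and EGF, alone and together, act on these factors, and how long the effect lasts.

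PEA3 factors are members of the ETS family, which share a DNA-binding domain that recognises a GGAA core. Growth factor receptors raise their transcription through RAS and ERK, partly by relief from CIC, a repressor that binds TGAATGAA and related octamers and leaves its targets when ERK is active. The proteins themselves are short-lived because COP1 and DET1, parts of a CUL4 ubiquitin ligase, mark them for degradation. In the developing kidney ETV4 and ETV5 act downstream of RET in the tips of the branching ureteric bud, and ETV1 is best known from neurons, heart conduction tissue and prostate cancer. The feedback inhibitors SPRY, SPRED and DUSP are induced by the same pathway and serve here as its other outputs.

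ETV1 lies on chromosome 7 (13891229 to 13991425, GRCh38), ETV4 on chromosome 17 (43527846 to 43546340) and ETV5 on chromosome 3 (186046314 to 186109089). RefSeq promoter windows, which reach from 250 bases before to 50 bases after a start site, were at hand for ETV1 (6 windows) and for 13 of 18 other ERK output genes. The octamers TGAATGAA, TGAATGGA, TCAATGAA and TCAATGGA were searched on both strands and occurred in 3.77% of 35116 windows. A single ETV1 window held such a word, 125 bases before its start, and so did windows of DUSP6, EPHA2, SPRED3 and VGF. The stretches around the word are shown because CIC is the repressor best known to act on these genes. They are given 5′ to 3′ on the strand of the gene (GRCh38.p14), with the octamer in capitals. The DUSP6 word is a match on the opposite strand, and a second such word at the start site itself is not shown. The VGF window holds 5 more matches on the opposite strand, at steps between 243 and 227 bases before the start, which are not shown either.
ETV1, chr7:13991503-13991590, minus strand: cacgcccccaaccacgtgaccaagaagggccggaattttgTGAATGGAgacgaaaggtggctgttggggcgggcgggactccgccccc
EPHA2, chr1:16156070-16156143, minus strand: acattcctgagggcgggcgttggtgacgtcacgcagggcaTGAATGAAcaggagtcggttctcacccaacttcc
VGF, chr7:101165612-101165699, minus strand: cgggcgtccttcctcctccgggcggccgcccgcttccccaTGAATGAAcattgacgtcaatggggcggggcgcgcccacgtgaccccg
DUSP6, chr12:89352502-89352565, minus strand: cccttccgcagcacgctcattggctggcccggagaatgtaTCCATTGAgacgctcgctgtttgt
SPRED3, chr19:38389559-38389646, plus strand: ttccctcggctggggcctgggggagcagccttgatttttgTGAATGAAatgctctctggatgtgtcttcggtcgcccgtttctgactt
In the ETV1 windows no AP-1 word (TGANTCA), CRE (TGACGTCA), EGR word (GCGNGGGCG) or CArG box was found, which occurred in 7.71%, 1.85%, 9.43% and 1.29% of all windows. The shorter word TGACG, part of the CRE, was in 3 of 6 ETV1 windows and in 24.6% of all windows. Some of these ETV1 windows overlap, so that the same copy of the word was counted more than once. The core GGAA was in all 6 ETV1 windows and in 95.5% of all windows. The EPHA2 and VGF windows each held a CRE as well, starting 51 and 79 bases before the start site. These matches describe letters and do not show binding.

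The kept libraries held 17.8 to 30 M counts. Of the libraries left out, 8 formed 4 pairs whose counts differed by less than sampling noise (chi-square per degree of freedom 0.397 to 0.505, against 2.02 for the next closest pair), and 3 of these pairs carried labels of different groups. The libraries labelled AII 6 h replicate 6 and AII + EGF 6 h replicate 6 lay at 0.843 and 0.00971 on a scale from AII 6 h (0) to AII + EGF 6 h (1), built from 2284 genes without the PEA3 factors, and so went against their labels. Replicate 6 of the EGF 24 h group, which was kept, lay at 0.257 on a scale from control (0) to its own group (1). Replicate 6 of the AII + EGF group at 24 h lay at 0.401. The others of their groups were at 0.932 or above, but they helped to set the scale and so lie near 1 by construction. Because of these low positions, results at 24 h are also given without the libraries numbered replicate 6, which close the order of titles. The HEK293 genes NEFM (5152 CPM), NEFL (1049 CPM), KRT18 (63.2 CPM) and VIM (306 CPM) were present, whereas the kidney factor PAX2 had 1.31 CPM. Of these NEFM, KRT18 and INA, another neurofilament gene, were called higher under AII + EGF at 6 h. Of 11 markers of leukocytes, endothelium, hepatocytes and fibroblasts COL1A1 alone was above 1 CPM on average (24.2 CPM). Their summed level was 11.7 to 16.3 CPM at 6 h and 14.9 to 46.4 CPM at 24 h and did not separate the stimuli at 6 h. Its part in the results was not tested.

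At 6 h the levels of all 3 PEA3 factors stood in the ascending order control, AII, EGF and AII + EGF, and for no factor did neighbouring groups overlap. The values are CPM, counts per M counts of a library, scaled with TMM factors. In bulk RNA, more cells with the transcript and more transcript per cell cannot be told apart.

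**Figure D1:**
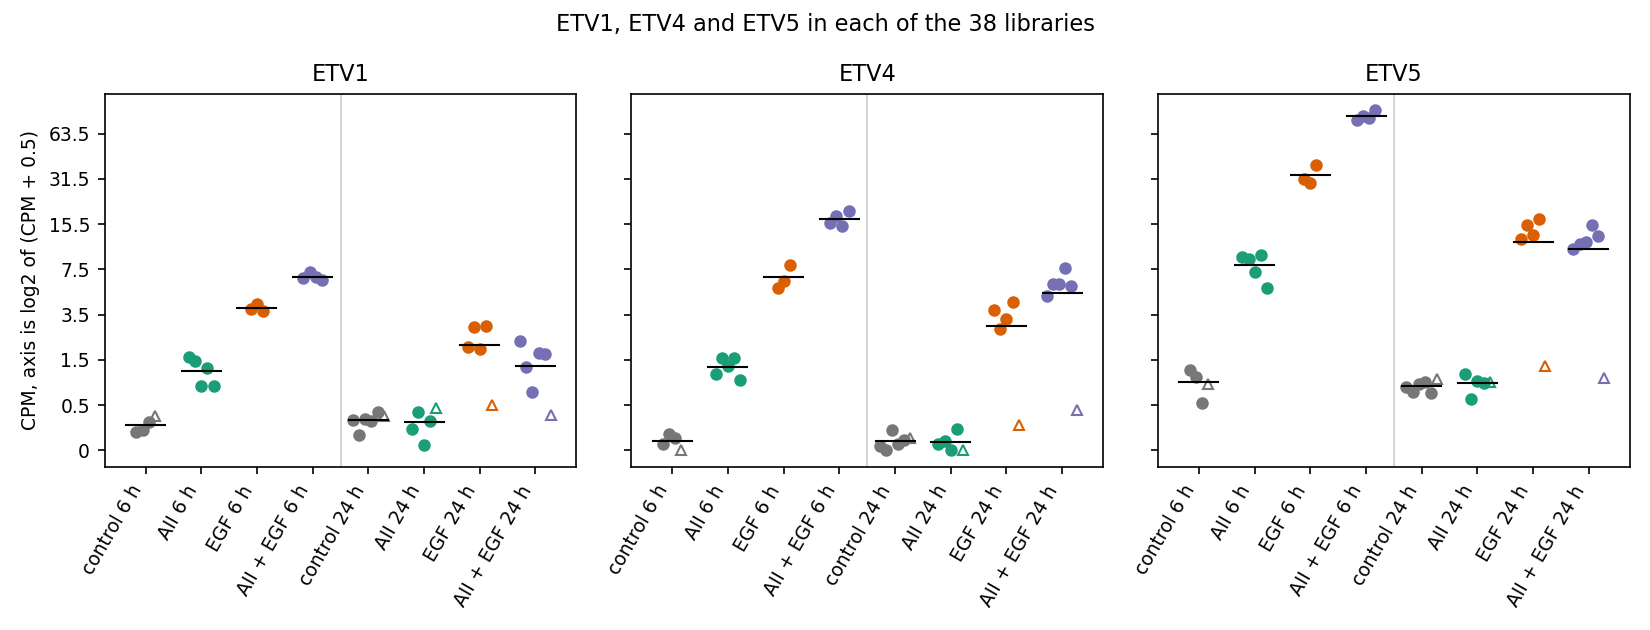
Levels of ETV1, ETV4 and ETV5 in CPM (vertical axis, log2 of CPM + 0.5) in the 38 kept libraries by group. Each point is a library, open triangles are the libraries numbered replicate 6, and the black line is the group mean. The 4 groups at 6 h form separate steps for each factor, and at 24 h the AII libraries lie among the controls.

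ETV5, the most abundant of the 3, was at 1.22, 1.05, 0.537 and 0.876 CPM in the 4 control libraries at 6 h. AII brought it to 9.15, 8.85, 7.19, 9.48 and 5.55 CPM. EGF brought it to 31.4, 29.7 and 38.8 CPM. Every EGF library was thus above every AII library, and the lowest AII library was above the highest control. With AII + EGF the level was 78.2, 83.7, 80.4 and 90.9 CPM, again above all EGF libraries. The means were 0.921 ± 0.292 (SD, n = 4), 8.04 ± 1.65 (n = 5), 33.3 ± 4.84 (n = 3) and 83.3 ± 5.54 CPM (n = 4). On the log2 scale of the fit these are changes of 3.11 ± 0.51 (SE) for AII, 5.17 ± 0.53 for EGF and 6.49 ± 0.53 for AII + EGF against control. Each SE of a log2 change was derived from the test statistic, with a spread estimated per gene over all 8 groups. It thus also reflects the libraries at 24 h. Without the libraries numbered replicate 6 these changes were 3.09 ± 0.22, 5.13 ± 0.23 and 6.45 ± 0.23. The pooled counts gave ratios of 8.55 (95% exact interval 6.75 to 11), 36.1 (28.7 to 45.9) and 90.0 (71.8 to 114). These intervals cover counting error only.

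ETV4 was almost silent in control cells. The 4 control libraries at 6 h held 1, 3, 2 and 0 counts of ETV4, a mean of 0.0743 ± 0.0604 CPM. After AII it was 1.10, 1.56, 1.32, 1.56 and 0.959 CPM. After EGF it was 5.49, 6.18 and 8.09 CPM. The steps between control, AII and EGF did not overlap. After AII + EGF it reached 15.8, 17.5, 15.1 and 19.2 CPM, above all EGF libraries. The log2 changes were 4.04 ± 0.85, 6.39 ± 0.76 and 7.75 ± 0.73, but they rest on 6 control counts in all and depend on the prior count. The ratio of pooled counts was 17.6 (7.85 to 48.7) for AII, 90.3 (41.2 to 247) for EGF and 232 (106 to 632) for AII + EGF. Of the 3 factors ETV4 had the largest fitted change under each stimulus, and its intervals overlapped those of ETV5 under each of them.

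ETV1 started from 0.159, 0.182, 0.269 and 0.350 CPM in the 4 control libraries at 6 h. It was 1.58, 1.45, 0.845, 1.26 and 0.839 CPM after AII. After EGF it was 3.88, 4.21 and 3.70 CPM. AII + EGF gave 6.53, 7.17, 6.58 and 6.35 CPM. As for the other factors, the groups formed 4 separate steps. The log2 changes were smaller, with 2.26 ± 0.49 for AII, 3.99 ± 0.48 for EGF and 4.75 ± 0.46 for AII + EGF. In pooled counts ETV1 was 4.82 (2.99 to 8.18), 16.2 (10.3 to 26.8) and 27.3 (17.5 to 45.1) times the control.

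Among all 19626 genes tested, every treated library was above every control library for 4.89% (AII), 13.2% (EGF) and 17.4% (AII + EGF) at 6 h. For EGF above AII the share was 12.1%, and for AII + EGF above EGF it was 13.9%. The PEA3 factors were chosen with these contrasts known, so their count of 3 of 3 carries no further weight.

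At 6 h the level with AII + EGF was 2.56 times that with EGF for ETV4 (2.31 to 2.84), 2.50 times for ETV5 (2.39 to 2.61) and 1.69 times for ETV1 (1.47 to 1.95) in pooled counts. The intervals of ETV4 and ETV5 overlapped and that of ETV1 lay below both, but they cover counting error only. On the log2 scale of the fit the rise was 1.36 ± 0.47 for ETV4, 1.32 ± 0.43 for ETV5 and 0.76 ± 0.36 for ETV1 (SE). These ranges overlapped. Without the libraries numbered replicate 6 the rise was 1.37 ± 0.21, 1.33 ± 0.16 and 0.77 ± 0.24, and the range of ETV1 lay below both others. That omission was chosen after seeing the data. The same direction was found within both stretches of consecutive titles that held EGF and AII + EGF libraries at 6 h (2.37 and 2.58 for ETV4, 2.34 and 2.63 for ETV5, 1.63 and 1.71 for ETV1). How the stimuli combine depends on the scale. In CPM the joint effect of ETV5 was 82.4 CPM, against 39.5 CPM for the sum of the separate effects, an excess of 42.8 ± 4.01 CPM (SE). For ETV4 the joint effect was 16.8 CPM against a sum of 7.74 CPM, and for ETV1 6.42 CPM against 4.64 CPM. The excess was 9.09 ± 1.21 CPM for ETV4 and 1.77 ± 0.28 CPM for ETV1. On the log2 scale the joint change was smaller than the sum of both changes, and this interaction was -1.79 ± 0.66 for ETV5, -2.69 ± 1.04 for ETV4 and -1.51 ± 0.61 for ETV1. The joint effect was thus more than additive in transcripts and less than multiplicative in folds. AII + EGF, AII and EGF were compared with the same control libraries.

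At 24 h AII no longer separated from control for any of the 3 factors, while EGF did. ETV5 was 0.699 to 1.00 CPM in the 6 control libraries (median 0.849) and 1.10, 0.594, 0.95, 0.911 and 0.913 CPM after AII. The AII libraries lay on both sides of the controls, with a ratio of pooled counts of 1.05 (0.798 to 1.37). For ETV1 that ratio was 0.978 (0.605 to 1.57), and ETV4 had 7 counts in all AII libraries against 11 in all controls. Across all genes edgeR's quasi-likelihood test called 0% for AII at 24 h, with 343 genes at an unadjusted p under 0.05 and 0 called by DESeq2.

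After 24 h of EGF, ETV5 was 12.3, 15.4, 13, 16.8 and 1.32 CPM. ETV4 was 3.79, 2.72, 3.24, 4.38 and 0.234 CPM. ETV1 was 1.94, 2.81, 1.87, 2.85 and 0.506 CPM. In each case the last value is from EGF 24 h replicate 6 and was the lowest, yet above the highest control, so that no library overlapped with control for any of the 3 factors (0.662% of all genes). The log2 changes against control were 3.78 ± 0.43, 5.13 ± 0.63 and 2.72 ± 0.38 for ETV5, ETV4 and ETV1. Without the libraries numbered replicate 6 they were 4.16 ± 0.18, 5.58 ± 0.33 and 3.05 ± 0.30.

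After 24 h of AII + EGF, ETV5 ranged from 1.00 to 15.2 CPM (median 11.5) in 6 libraries. ETV4 ranged from 0.431 to 7.63 CPM (median 5.81). ETV1 ranged from 0.359 to 2.18 CPM (median 1.48). AII + EGF 24 h replicate 6 was again the lowest for each. Through it ETV1 overlapped with control, and ETV5 in this library (1.0046 CPM) was next to its highest control (1.0009 CPM). All libraries of ETV4 and ETV5 were above control (2.62% of all genes). The log2 changes were 3.61 ± 0.42 for ETV5, 5.96 ± 0.60 for ETV4 and 2.13 ± 0.38 for ETV1, and 3.94 ± 0.18, 6.35 ± 0.31 and 2.41 ± 0.30 without the libraries numbered replicate 6.

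All 3 factors were lower at 24 h than at 6 h under each stimulus, with no overlap between times. Such a fall was seen for 13.2% of all genes under AII, 23.7% under EGF and 22.9% under AII + EGF. The 24 h level was 0.339 (0.317 to 0.362) times the 6 h level for ETV5 under EGF, 0.418 (0.361 to 0.482) for ETV4 and 0.490 (0.410 to 0.585) for ETV1. Under AII + EGF it was 0.120 (0.113 to 0.128) for ETV5, 0.192 (0.160 to 0.228) for ETV1 and 0.288 (0.262 to 0.316) for ETV4. On the log2 scale of the fit the changes under AII + EGF were -3.01 ± 0.36 for ETV5, -2.34 ± 0.32 for ETV1 and -1.74 ± 0.38 for ETV4 (SE), so that neighbours in this order lay within about 2 SE of each other. Without the libraries numbered replicate 6 the ratios were 0.438 (ETV5), 0.544 (ETV4) and 0.613 (ETV1) under EGF and 0.151, 0.363 and 0.232 under AII + EGF. The control levels of both times overlapped for each factor.

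In the order of the 8 group means the steps that did not overlap were the same for the 3 factors only in part. AII 24 h and both controls lay together at the bottom. AII 6 h stood clear of them and overlapped with the 24 h groups of EGF and AII + EGF, which overlapped with each other. Without the libraries numbered replicate 6, AII 6 h no longer overlapped with EGF 24 h for any factor, and it overlapped with AII + EGF 24 h for ETV1 alone. EGF 24 h and AII + EGF 24 h then still overlapped for ETV1 and ETV5 but not for ETV4. For this setting the share of all genes without overlap was not computed. EGF 6 h stood clear of the 24 h groups for ETV1 and ETV5, whereas for ETV4 it overlapped with AII + EGF 24 h. AII + EGF 6 h was on top for all 3.

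At 24 h ETV4 was higher and ETV1 lower with AII + EGF than with EGF, and the side of ETV5 depended on 1 library. The level under AII + EGF was 1.77 times that under EGF for ETV4 (1.54 to 2.03), 0.887 times for ETV5 (0.821 to 0.958) and 0.661 times for ETV1 (0.538 to 0.812) in pooled counts. Within each of the 4 stretches of titles at 24 h, ETV4 was higher under AII + EGF (1.31 to 2.27 times) and ETV5 (0.759 to 0.949 times) and ETV1 (0.522 to 0.891 times) were lower. The stretch of replicate 6 rests on few counts, 12 against 6 (ETV4), 28 against 34 (ETV5) and 10 against 13 (ETV1). It gave the 0.759 of ETV5. The libraries of both groups overlapped for each factor, and on the log2 scale the difference was 0.83 ± 0.39 for ETV4, -0.17 ± 0.35 for ETV5 and -0.60 ± 0.32 for ETV1. Without the libraries numbered replicate 6, ETV4 was 4.71 to 7.73 CPM under AII + EGF and 2.76 to 4.35 CPM under EGF, with no overlap and a log2 difference of 0.77 ± 0.19. ETV5 (-0.22 ± 0.14) and ETV1 (-0.64 ± 0.24) still overlapped then. This omission was chosen after seeing the data, and the share of all genes without overlap in it was not computed. With all kept libraries, every AII + EGF library was above every EGF library for 1.03% of all genes. Without AII + EGF 24 h replicate 6 alone the difference of ETV5 turned to 0.08, and without EGF 24 h replicate 6 alone it was -0.47.

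**Figure D2:**
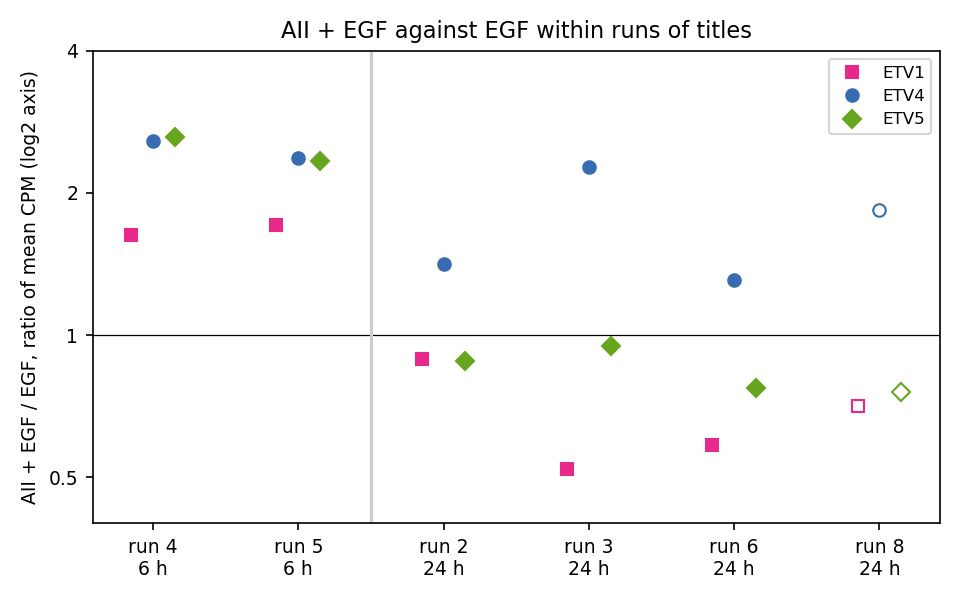
Ratio of the mean CPM under AII + EGF to that under EGF (vertical axis, log2 scale) for ETV1, ETV4 and ETV5 within each stretch of consecutive titles that held both groups; open symbols are the stretch of the 24 h libraries numbered replicate 6. At 6 h all ratios are above 1, and at 24 h those of ETV4 are above 1 and those of ETV1 and ETV5 below.

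To compare the factors with each other, CPM was divided by the length of the MANE Select transcript (6.459 kb for ETV1, 2.335 kb for ETV4, 4.082 kb for ETV5). On this scale ETV5 had 20.4 ± 1.36 CPM per kb under AII + EGF at 6 h, ETV4 7.24 ± 0.78 and ETV1 1.03 ± 0.06 (SD, n = 4). ETV5 made up 71.2 ± 0.91% of the sum of the 3 in these libraries, 70.4 ± 1.73% under EGF and 72.5 ± 1.93% under AII. The ratio of ETV4 to ETV5 in a library was 0.286 ± 0.044 under AII, 0.344 ± 0.034 under EGF and 0.354 ± 0.019 under AII + EGF, with overlapping libraries for the latter pair. At 24 h it was 0.410 ± 0.100 under EGF (0.309 to 0.540) and 0.835 ± 0.068 under AII + EGF (0.749 to 0.920). These groups did not overlap, with or without the libraries numbered replicate 6. In those libraries the ratio rests on 6 ETV4 and 34 ETV5 counts under EGF and 12 and 28 under AII + EGF. At 24 h ETV5 made up 65.0 ± 3.33% and 51.6 ± 1.29% of the sum (65.1 ± 3.83% and 51.8 ± 1.34% without those libraries). The share of other gene pairs whose ratios separate in this way was not computed. The ratio of ETV1 to ETV5 at 6 h was 0.0933 ± 0.0141 under AII, 0.0759 ± 0.0147 under EGF and 0.0507 ± 0.0045 under AII + EGF. A ratio within a library does not depend on its scaling but shows unequal change only, and does not tell which factor moved.

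**Figure D3:**
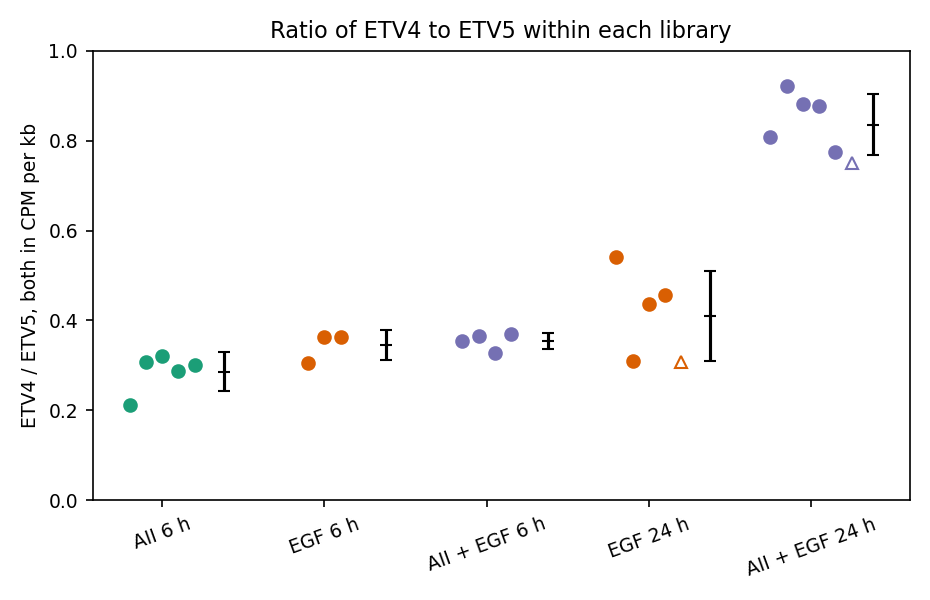
Ratio of ETV4 to ETV5, both in CPM per kb of transcript (vertical axis), in each library of the 5 groups in which both were raised; bars are mean ± SD over the libraries and open triangles are those numbered replicate 6. The AII + EGF 24 h libraries lie between 0.749 and 0.920, above all others.

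Among the receptors that can feed the pathway (11 genes), 2 rose under AII + EGF at 6 h by edgeR's quasi-likelihood test across all genes (called at an adjusted p under 0.01, at least 1.5-fold and above 5 CPM), while 12% of all genes were called. These were EGFR (log2 change 1.29 ± 0.13, adjusted p = 3.49e-10), the EGF receptor, and AGTR1 (1.23 ± 0.17, 4.92e-07), which here reports the AT1R transgene and lay between 3959 and 15209 CPM over the libraries. The median change of the receptors was 0.10, against -0.03 over all genes. Under EGF EGFR alone of the list was called (0.75 ± 0.14, adjusted p = 0.000252). EGFR had 19.2 ± 2.85 CPM in controls (n = 4) and reached 46.8 ± 2.45 CPM with AII + EGF at 6 h (n = 4), compared with 29.8 ± 4.54 and 28.6 ± 2.86 CPM at 24 h (n = 6 each). RET, the receptor upstream of ETV4 and ETV5 in the ureteric bud, was between 0.682 and 2.87 CPM over all libraries. It thus lay below the limit of 5 CPM and could not be called. Of the 14 genes of the ERK cascade, 1 was called, MAP2K1, the kinase above ERK (0.91 ± 0.10, adjusted p = 9.07e-10).

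Among the 18 other ERK output genes 2 were called at 6 h with AII, 11 with EGF and 13 with AII + EGF, where 0.469%, 1.94% and 12% of all genes were called. All calls were rises except that of EPHA4, an ephrin receptor, under AII + EGF (-1.0 ± 0.10, adjusted p = 1.01e-10). The list's median log2 change grew from 0.43 to 1.15 and 1.94, against -0.01, -0.01 and -0.03 over all genes. EGR1, a zinc finger factor induced within minutes of ERK activation, had the largest change of the genes called under AII + EGF (5.22 ± 0.35, adjusted p = 1.43e-14). VGF, a neuropeptide precursor, followed (3.56 ± 0.30, 4.33e-12), and then EPHA2, an ephrin receptor (2.89 ± 0.20, 2.69e-14), and IER3, an early response gene (2.41 ± 0.26, 1.81e-09). SPRED2, an inhibitor of RAF activation, and EPHA2 were the 2 genes called under AII alone (0.75 ± 0.16, adjusted p = 0.00397, and 0.95 ± 0.19, 0.00206), a count that fell to 0 without control 6 h replicate 5 or replicate 6. SPRY4 (6.31) and DUSP6 (2.65), a receptor feedback inhibitor and an ERK phosphatase, passed the limits on p and fold under AII + EGF but stayed below 5 CPM.

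AII + EGF against EGF at 6 h gave 7 calls in this list, 6 rises and the fall of EPHA4, with 2.92% of all genes called. This count was 0 with all 48 libraries and 0 with the 40 left after removing only the near-identical pairs, where 33 genes in all were called in place of 574. The log2 interaction was called for VGF alone (2.29 ± 0.43, adjusted p = 0.0036), where 0.229% of all genes were called. For VGF the joint change exceeded the sum of the separate changes on the log2 scale, while the interactions of ETV1, ETV4 and ETV5 were below 0. At 24 h 3 of the 18 genes rose under EGF (DUSP4, EGR1 and SPRED2) and 5 under AII + EGF (these and DUSP5 and EPHA2), with 0.245% and 2.89% of all genes called. For AII at 24 h edgeR called 0 of the list, with 0 at an unadjusted p under 0.05 and 0 called by DESeq2. For AII + EGF against EGF at 24 h it called 0, with 3 at an unadjusted p under 0.05 and 0 called by DESeq2. The count under EGF fell to 1 in 6 of the fits that left out 1 library, and it was 4 (EGF) and 5 (AII + EGF) without the libraries numbered replicate 6. The 48 genes called in all under EGF at 24 h became 16 without EGF 24 h replicate 4, 93 without EGF 24 h replicate 6 and 124 without all libraries numbered replicate 6.

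**Figure D4:**
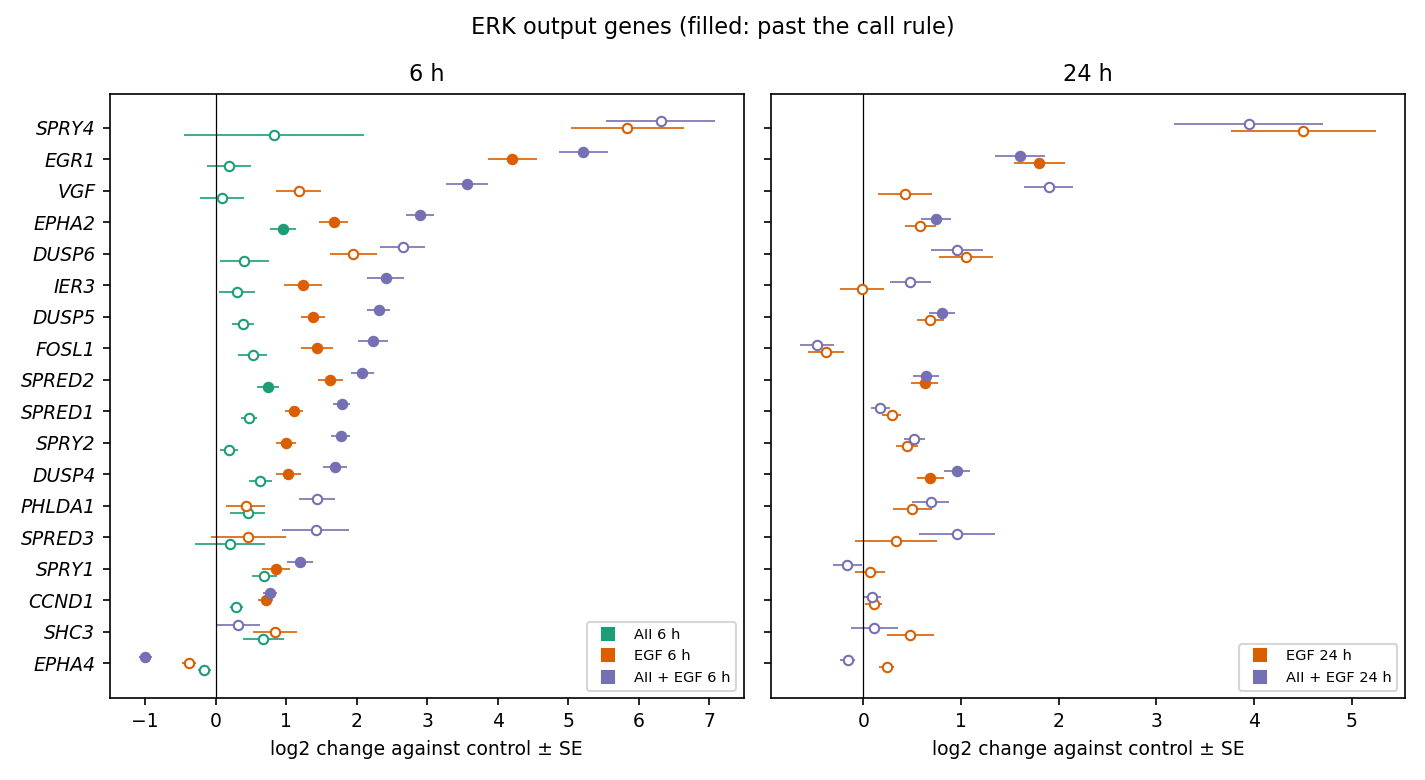
Log2 change against control ± SE (horizontal axis) of 18 ERK output genes at 6 h (left, AII, EGF and AII + EGF) and 24 h (right, EGF and AII + EGF) in the fit over 38 libraries; filled points passed the limits on adjusted p, fold and abundance. SPRY4 and EGR1 stand at the top, EPHA4 is the gene that fell, and most changes are smaller at 24 h.

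CIC, the repressor, had 87.1 ± 8.72 CPM in the 6 h controls (n = 4) and 67.6 ± 6.72 CPM under AII + EGF (n = 4). This log2 difference (-0.37 ± 0.12, adjusted p = 0.0184) did not pass. Of the 11 genes of PEA3 repression and degradation 3 rose under AII + EGF at 6 h, where 12% of all genes were called. These were TRIB1 (0.99 ± 0.15, adjusted p = 1.28e-06) and TRIB3 (0.85 ± 0.14, 1.09e-05), pseudokinases of the Tribbles family, of which TRIB1 recruits substrates to COP1, and ATXN1 (0.85 ± 0.15, 1.41e-05), a partner of CIC. COP1 (0.11 ± 0.13, adjusted p = 0.542) and DET1 (-0.49 ± 0.26, 0.149) were not called. DET1, with 2.71 CPM in controls and 1.93 CPM under AII + EGF, lay below the abundance limit and could not be called. The median of the list was 0.17. At 24 h none of the list was called under AII + EGF by edgeR (2.89% of all genes), with 4 genes at an unadjusted p under 0.05.

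Of 25 other ETS factors 18 were abundant enough to be tested, and 3 rose under AII + EGF at 6 h, where 12% of all genes were called. ETS1, the founding member of the family, rose most (3.74 ± 0.33, adjusted p = 1.63e-11), to a mean of 5.96 CPM, just above the abundance limit. ELF4 (1.00 ± 0.17, 8.48e-06) and ELK3, a ternary complex factor (0.59 ± 0.11, 5.10e-05), were the others, and ELK3 lay at the limit of 1.5-fold. The median of the 18 was 0.31. ERF, an ETS repressor that ERK exports from the nucleus, was 29.7 ± 2.34 CPM in controls and 44.5 ± 2.80 CPM under AII + EGF (log2 change 0.58, just under 1.5-fold). ELF4 was the ETS factor called under EGF (0.78 ± 0.18, adjusted p = 0.0033), and none was called under AII, where 2 had an unadjusted p under 0.05.

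Among 11 genes described as PEA3 targets, 8 could be tested and 2 rose under AII + EGF at 6 h, with a median log2 change of 0.40 and 12% of all genes called. The count was 4 with library totals as the scale and 4 without the libraries numbered replicate 6. MYB, a transcription factor of progenitor cells, was called under AII (0.68 ± 0.15, adjusted p = 0.00822), EGF (1.29 ± 0.17, 7.99e-07) and AII + EGF (1.70 ± 0.16, 5.13e-11) at 6 h, and under EGF (0.71 ± 0.13, 0.00223) and AII + EGF (0.66 ± 0.13, 0.000247) at 24 h. CXCR4, a chemokine receptor that ETV4 and ETV5 are reported to raise in the ureteric bud, was called with EGF (0.87 ± 0.16, adjusted p = 0.000221) and with AII + EGF (0.98 ± 0.15, 1.66e-06) at 6 h. MMP14, a membrane protease (-0.49 ± 0.17, adjusted p = 0.0259), and VIM, an intermediate filament (-0.56 ± 0.20, 0.0267), were not called.

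Over the 38 libraries the patterns of ETV1 and ETV4 were each most like that of ETV5 by Pearson's correlation. ETV1 and ETV4 were less like one another than each was like SPRED2. The correlation of log2(CPM + 0.5) was 0.973 between ETV4 and ETV5, 0.968 between ETV1 and ETV5 and 0.935 between ETV1 and ETV4, and 0.948, 0.765 and 0.739 for deviations from the group means. The latter contain the libraries numbered replicate 6, which are low in each factor at 24 h. Among the 11764 candidate genes with a mean above 5 CPM, ETV5 was the gene most like ETV1 (0.968) and most like ETV4 (0.973). ETV1 and ETV4 fell below that mean and were not candidates themselves. Of the candidates SPRED2 was the second for both (0.951 and 0.944) and the first for ETV5 (0.956). The next for ETV1 were EGR3 (0.919), EGR1 (0.907) and GPR50 (0.903), an orphan receptor. The next for ETV4 were ARC (0.932), an activity-regulated cytoskeletal gene, TNFRSF12A (0.931), the TWEAK receptor, and GJA3 (0.930), a gap junction connexin. The next for ETV5 were VCL (0.947), the adhesion protein vinculin, DOP1B (0.933), TNFRSF12A (0.922) and EGR3 (0.918). These points share libraries and treatments, and the correlations describe likeness over 8 groups.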

How the data were processed

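Poly(A) RNA of 48 libraries was sequenced and deposited by the authors as raw counts per gene, with HISAT2 2.1.0, featureCounts and hg38 named in the submitters' processing notes. Whether counting used strand is not given in the sources used here. The antisense gene ETV5-AS1 had at most 6 counts in a library. Groups were taken from the labels. Nothing states that libraries came from separate cultures, so p-values measure the spread between these libraries, which may be technical.

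The 38 kept libraries entered 1 fit with edgeR 4.0.16 (quasi-likelihood test, TMM factors, filterByExpr, no covariates) in R 4.3.3, in which 19626 of 60610 genes were tested. A call needed an adjusted p (Benjamini-Hochberg, over all genes tested) below 0.01, a fold of at least 1.5 and a mean above 5 CPM in the higher group. Pooled count ratios carry exact binomial 95% intervals. On simulated counts for AII + EGF at 6 h (19626 genes, 200 changed) 90% of changes of log2 1 and 100% of log2 2 were recovered, with 0 unchanged genes called. The 200 were drawn from genes with a mean above 5 CPM, so recovery below that limit was not examined. Simulated libraries were independent and the spread per gene was capped, so these figures may be better than in the data. DESeq2 1.42.0 was an alternative, with others on libraries, normalization, filter, thresholds and title order.

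Factors and lists were chosen with earlier results of these data known. From each list up to 4 called genes with the largest change under AII + EGF at 6 h were named, and from the correlations the 5 highest. CIC, COP1, DET1, DUSP4, DUSP5, DUSP6, EPHA4, ERF, INA, MMP14, RET, SPRED2, SPRY4 and VIM were named after their values were seen. Title stretches are runs of consecutive sample titles that pass once through the 4 treatments.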

Additional observations from a re-analysis of the deposited data

Results flagged for a closer look

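ETV5 in AII + EGF 24 h replicate 6 (1.00 CPM) was far from the other 5 libraries of its group, with a gap of 0.662 of the group's range. This was 1 of 21 groups of the 3 factors large enough to be examined, at a chance rate of about 1 in 20 for each. ETV5 in EGF 24 h replicate 6 (1.32 CPM, the others 12.3 to 16.8 CPM) fell barely short of the limit, which is higher for smaller groups. The 21 are not independent, since the 3 factors vary together in the same libraries. AII + EGF 24 h replicate 6 also lay at 0.401 on the scale from control to its group, built from 1433 genes without the PEA3 factors.

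The log2 response to AII + EGF at 24 h minus that at 6 h was called by edgeR's quasi-likelihood test over all genes in 11 of the 15 named list genes, against 11.6% of all genes. The named genes were picked for a large response at 6 h, which favours a smaller one at 24 h, so these values are a description. It was -3.61 for EGR1 (adjusted p = 1.55e-08), -2.63 for ETS1 (2.71e-05), -2.15 for EPHA2 (1.75e-08) and -1.93 for IER3 (2.52e-05). It was -1.66 for VGF (0.00119), -1.38 for CXCR4 (7.63e-07), -1.35 for EGFR (8.53e-08) and -1.04 for MYB (0.000133). It was -0.87 for TRIB1 (0.000646), -0.84 for ATXN1 (0.000788) and -0.72 for MAP2K1 (2.09e-05).

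Of the 10 libraries left out, 9 held more ETV5 than the highest kept control library of their time (1.22 CPM at 6 h and 1.00 CPM at 24 h). These are not separate measurements, since 8 of the 10 form the 4 near-identical pairs. The pairs were EGF 6 h replicates 2 and 6, and EGF 6 h replicate 1 with AII + EGF 6 h replicate 4. Control 6 h replicate 1 paired with EGF 24 h replicate 2. Control 6 h replicate 2 (1.17 CPM), which was not above, paired with AII 24 h replicate 4. The libraries labelled EGF 6 h replicates 1, 2 and 6 had 54.4, 33.3 and 33.4 CPM. Those labelled AII + EGF 6 h replicates 4 and 6 had 55.0 and 7.5 CPM. The library labelled AII 6 h replicate 6 had 49.6 CPM and that labelled control 6 h replicate 1 had 5.79 CPM. The libraries labelled EGF 24 h replicate 2 and AII 24 h replicate 4 had 6.09 and 1.28 CPM.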

How the results depend on the processing

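The log2 changes of ETV1, ETV4 and ETV5 kept their direction under the alternatives run, except that of ETV5 for AII + EGF against EGF at 24 h (-0.17), which was 0.08 without AII + EGF 24 h replicate 6. Of 214 values of their changes, 181 moved by less than the spread between libraries, as did 902 of 912 with 1 library left out. ETV4 had 6 counts in the 4 kept controls at 6 h, and the left-out library labelled control 6 h replicate 1 held 69.

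With all 48 libraries as labelled, the log2 changes at 6 h were 3.52 (AII + EGF), 3.11 (EGF) and 0.41 (AII + EGF against EGF) for ETV1. They were 4.92, 4.12 and 0.80 for ETV4, with 3.07 for AII and an interaction of -2.27, and 5.10, 4.27 and 0.83 for ETV5. The mean CPM under AII + EGF, AII and control at 6 h was 5.47, 1.83 and 0.435 for ETV1, 13, 3.61 and 0.360 for ETV4 and 65.1, 14.9 and 1.77 for ETV5. Of the 5 genes most like ETV5, 3 remained. Leaving out only the near-identical pairs (40 libraries) gave 4.49 (AII + EGF), 2.89 (AII), 0.50 (AII + EGF against EGF) and -2.39 (interaction) for ETV1, 7.45, 5.53 and an interaction of -4.47 for ETV4, and for ETV5 4.02 (AII), 1.03 (AII + EGF against EGF) and -2.99 (interaction). In both settings the calls among ERK output genes were 0 under AII at 6 h, 0 for AII + EGF against EGF at 6 h, 0 under EGF at 24 h and 1 under AII + EGF at 24 h, other ETS factors had 1 call, and with 40 libraries EGF at 6 h had 6.

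ERK output calls under AII at 6 h were 4 with DESeq2 and 4 at an adjusted p under 0.05. Without an abundance minimum they were 9 (AII + EGF) and 5 (EGF) at 24 h, and with only the groups compared 0 under EGF at 24 h. Library totals without factors gave 4 calls among PEA3 targets and, at 6 h, 6.06 CPM (AII + EGF) and 3.58 CPM (EGF) for ETV1 and 75.6 CPM (AII + EGF) for ETV5. By Spearman's rho 2 of 5 most similar genes remained for each factor, and SPRED2 came first for ETV1 and TNFRSF12A for ETV4. Replicate numbers follow accession order and pair no libraries. Title stretches as a replicate block gave, at 6 h, 0.63 (AII + EGF against EGF) and 4.24 (EGF) for ETV1, and 7.27 (AII + EGF), 3.59 (AII), 5.94 (EGF) and -2.26 (interaction) for ETV4. Without the libraries numbered replicate 6, chosen after seeing the data, PEA3 targets had 4 calls, ETV1 changed by 5.0 (AII + EGF) and 4.23 (EGF), and ETV4 by 7.30 (AII + EGF), 3.61 (AII), 5.94 (EGF) and -2.24 (interaction).

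Leaving out 1 library at a time gave 0 to 3 ERK output calls under AII at 6 h, 1 to 4 under EGF at 24 h and 3 to 6 under AII + EGF at 24 h. For ETV4 it gave 3.61 to 4.55 (AII), 5.93 to 6.89 (EGF), 7.31 to 8.25 (AII + EGF) and -3.19 to -2.23 (interaction), the extremes coming without control 6 h replicate 4 or 6. For ETV1 it gave 3.85 to 4.22 (EGF) and 4.61 to 5.0 (AII + EGF). ELK3 lost its call in 6 alternatives, TRIB3 with 48 libraries (0.58), and ETS1 with 48 (3.16) and 40 (3.47). Under the alternatives other than leaving out 1 library, the calls over all genes ranged from 71 to 127 for AII, 121 to 507 for EGF, 1604 to 3247 for AII + EGF and 33 to 743 for AII + EGF against EGF at 6 h, and from 2 to 137 for EGF and 344 to 1113 for AII + EGF at 24 h. With 1 library left out they were 16 to 93 for EGF and 471 to 835 for AII + EGF at 24 h, and 62 to 101 for AII at 6 h.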
